A study of Sus scrofa with 14 samples.

Results

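The step from embryonic day 80 (E80) to embryonic day 100 (E100) in pig cortex was described for circular RNAs (circRNAs) and the genes that host them. It was set by a pair of cortex libraries out of the 14 libraries of embryonic pig brain, 1 at E100 and 1 at E80. Of 5585 circRNAs listed for forebrain and cortex, the 4997 whose library reads added up to their stated total were used. For ratios of single circRNAs, the 187 with at least 20 reads in both libraries together were taken. In each library, total RNA over 200 nt from dissected fetal cortex was depleted of ribosomal RNA and sequenced. No animal was treated, and neither strain, genotype nor sex of the fetuses is given in the labels. The same table has forebrain at E23 and cortex at E42, E60 and E115, again 1 library each. Since no stage was replicated, every interval below is a 95% interval for counting error only, and a difference beyond it may still lie within the spread between animals or libraries.

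A circRNA forms when the spliceosome joins the end of an exon to the start of the same or an upstream exon. The closed loop has no free ends, is resistant to exonucleases and can outlast the linear messenger RNA of its host gene. Brain is rich in circRNAs, and many neuronal ones come from genes of the synapse. Late gestation is a time of synapse formation in the pig cortex. Reads across the backsplice junction count a circRNA, and the fragments per kilobase and 1e6 mapped reads (FPKM) of its host gene describe the gene as a whole, circular and linear RNA together.

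The libraries held 48.5 M (1e6) reads at E100 and 26.6 M at E80. They differed in more than day. USP9Y, a gene on the Y chromosome, was listed at 0 FPKM at E100, against 12.4 at E80, and its circRNAs had 0 reads at E100 and 4 at E80. Day and sex of the fetuses thus cannot be told apart. The same holds for the pair E115 over E60 used below, where USP9Y had 11.6 FPKM at E115 and 0 at E60. On the scale of FPKM + 1, 3 of 2171 host genes were at least 2-fold above every other stage in the E100 library, and 7 were in the E80 library. They are named here after their values were seen. ENPP2, which encodes autotaxin and is abundant in the choroid plexus and in oligodendrocytes, had 16.1 FPKM at E100 and 261 at E80, against 3.36 to 16.99 at the other 4 stages. TBPL1, a TATA-box-binding-protein relative, had 14.3 FPKM at E100 and 103 at E80. LRRC9 had 6.28 FPKM at E100 and 37.9 at E80, and MORN2 had 21.3 and 55.4. The cilium gene LCA5 had 3.37 FPKM at E100 and 15.9 at E80, while TMEM232 and C2orf73 stayed below 4 FPKM in both. At E100 the genes that stood out were NR4A2, a nuclear receptor, with 47.6 FPKM against 13.7 at E80, ENSSSCG00000025553 and ENSSSCG00000029487. Of 34 markers of vessels, blood, microglia, meninges and choroid plexus only FLT1 was a host gene here, with 15.2 FPKM at E100 and 7.81 at E80. The part of other tissue in the results was not tested. Genes of cortical neurons were read in both libraries, with 199.9 FPKM of MEF2C at E100 and 211 at E80.

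Relative to all library reads, the total circRNA level was slightly lower at E100 than at E80. The E100 cortex had 13128 circRNA reads, or 271 reads per 1e6 library reads (RPM; exact Poisson interval 266 to 275). The E80 cortex had 8098, or 304 RPM (297 to 311). The ratio of the levels, E100 over E80, was 0.890 (exact conditional interval 0.865 to 0.915). The neighbouring steps had ratios of 0.376 (E80 over E60) and 0.799 (E115 over E100), so the step lay between the steep fall after E60 and the decline towards E115. In bulk tissue, fewer cells with a circRNA and fewer copies per cell cannot be told apart.

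The number of circRNAs found depended on depth and on the lowest count accepted. At least 2 reads were found for 1756 circRNAs at E100 and for 1283 at E80. Drawn down to the 8098 reads of E80, the E100 library was expected to hold 1200 of them. From 3 reads the numbers were equal, 711 expected at E100 and 711 at E80, and low E100 counts may be missing from the table. Both libraries shared 1290 circRNAs with a read, which held 82.5% of the E100 reads and 82.3% of the E80 reads. A further 997 had reads at E100 only and 803 at E80 only. The highest count at E100 with 0 at E80 was 15, for a circRNA of ENSSSCG00000024627 (chr6:44991359-45006970). MORN2, whose FPKM also stood out at E80, had the highest count in the other direction, 0 reads at E100 and 14 at E80 (chr3:107521846-107610973). A count of 0 allows up to 0.0618 RPM at E100 and 0.113 RPM at E80 (3 reads), so these are not shown to be absent.

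Of the 187 circRNAs, 23 (12.3%) were at least 2-fold higher at E100 and 30 (16%) at least 2-fold lower. The ratio was past 2-fold with an interval that left out 1 for 13 higher (6.95%) and 23 lower ones (12.3%). Without regard to the fold, 17 intervals lay above 1 (9.09%) and 26 below it (13.9%). In all, 134 circRNAs lay within 2-fold, and the median ratio was 0.924. The balance between higher and lower depended on the scaling. With levels relative to the circRNA reads the split was 30 higher and 18 lower, with TMM factors 37 and 10, and with median-ratio factors 29 and 21. These factors shift every log2 ratio up by 0.17, 0.36 and 0.11, so the ranking of circRNAs is the same under each of them. The step moved fewer circRNAs past 2-fold than E80 over E60, where 9 of 245 were higher (3.67%) and 168 lower (68.6%). More were past 2-fold upwards than in E115 over E100, where 9 of 216 were higher (4.17%) and 29 lower (13.4%). The 3 steps share libraries with each other, and the tests of their differences were not possible with 1 library a stage.

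**Figure D1:**
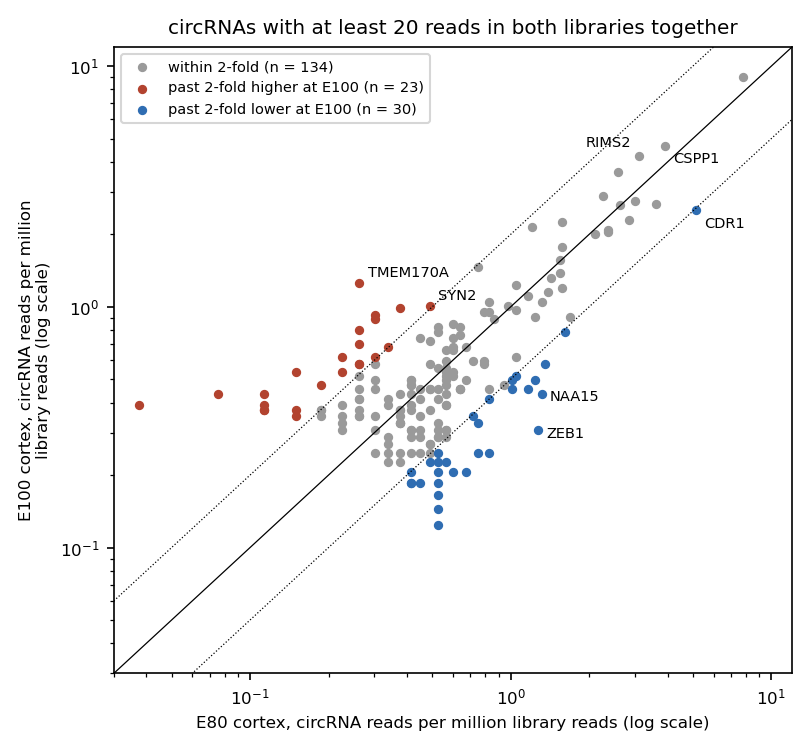
Level of each of the 187 circRNAs with at least 20 reads in both libraries together, in reads per 1e6 library reads on log axes, E100 on the vertical axis and E80 on the horizontal axis. The solid line marks equal levels and the dotted lines 2-fold; 23 circRNAs lie above the upper dotted line and 30 on or below the lower one.

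The 12 circRNAs with the highest lower bounds of the ratio came from varied hosts, and 3 of them had none listed. TMEM170A, a membrane protein of the endoplasmic reticulum and nuclear envelope, gave the circRNA with the highest lower bound (chr6:12077068-12095147). It had 61 reads at E100 and 7 at E80, or 1.26 and 0.263 RPM, a ratio of 4.78 (2.19 to 12.4). The host gene itself differed less, with 71.0 FPKM at E100 and 54.5 at E80. Highest in ratio was a junction with no listed host on chromosome 15 (chr15:156396928-156442590), with 19 reads at E100 and 1 at E80, a ratio of 10.4 that 1 read leaves wide (1.66 to 433). Another such junction on chromosome 4 (chr4:21605708-21637785) had 48 reads at E100 and 10 at E80 (ratio 2.63, interval 1.32 to 5.84). The one on chromosome 17 (chr17:49887473-49948154) had 34 and 7 (2.67, 1.16 to 7.12). In all, 4 of the 23 higher circRNAs had no listed host and 5 had several, against 1 and 2 of the 30 lower ones and 12 and 14 of all 187.

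MMP16, a membrane-anchored metalloproteinase that cleaves extracellular matrix, had 39 circRNA reads at E100 and 7 at E80 (chr4:53450096-53468858; ratio 3.06, interval 1.35 to 8.10). The junction over ADGB and RAB32, a globin and a small GTPase, had 45 reads at E100 and 8 at E80 (chr1:20905948-20958067; ratio 3.09). Over ATP9B, a lipid-flipping ATPase, and NFATC1, a calcineurin-dependent transcription factor, 21 reads were found at E100 and 2 at E80 (chr1:161699776-161765610; ratio 5.76). CCDC30 had 26 reads at E100 and 4 at E80 (chr6:156310075-156321453; ratio 3.57). Its host FPKM went the other way, 11.2 at E100 and 12.5 at E80. Genes with an Ensembl ID and no symbol completed the group. ENSSSCG00000024934 had 104 reads at E100 and 32 at E80 (ratio 1.78), ENSSSCG00000022710 had 43 and 8 (2.95) and ENSSSCG00000007833 had 21 and 3 (3.84). The last of these also had 101 FPKM at E100 and 27.3 at E80. Each of these intervals left out 1.

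Of the 27 lower circRNAs with 1 host, 25 had a host within 2-fold in FPKM, as had 144 of all 161. ZEB1, a zinc-finger repressor that acts in neural progenitors in mouse, had 15 reads at E100 and 34 at E80, or 0.309 and 1.28 RPM (chr10:46597662-46613689). The ratio was 0.242 (0.123 to 0.457). NAA15, the auxiliary subunit of an N-terminal acetyltransferase, had 21 reads at E100 and 35 at E80 (chr8:93287563-93308599; ratio 0.329, interval 0.182 to 0.582). MORC3, a nuclear ATPase that binds chromatin, gave a pair of lower circRNAs. One had 12 reads at E100 and 22 at E80 (chr13:210044909-210047801; ratio 0.299) and the other 28 and 36 (chr13:210039530-210045037; ratio 0.427). The MORC3 gene had 15.4 FPKM at E100 and 15.3 at E80, so its circRNAs were lower while its FPKM was level.

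The circRNA of the X-linked gene CDR1 had the narrowest interval among the lower ones (chrX:131493485-131495109). It had 123 reads at E100 and 137 at E80, or 2.53 and 5.14 RPM, and a ratio of 0.493 (0.383 to 0.633). Its host was listed at 0 FPKM at E100 and at 1.20 at E80. Scaled by circRNA reads the ratio was 0.554 and with TMM factors 0.633, so it is past 2-fold only on library totals. An antisense circRNA that binds miR-7 is known from this locus in human and mouse, and whether the junction belongs to it was not examined. Of 5 circRNAs on the X chromosome among the 187, 0 were past 2-fold higher and only this one was lower, against 12.3% and 16% of all. So few circRNAs do not set the X chromosome apart.

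The other lower circRNAs of the same ranking, given here with 2 more past 2-fold, had hosts of varied function. PTP4A1, a tyrosine phosphatase, had 6 reads at E100 and 14 at E80 (ratio 0.235). PAN3, a subunit of a poly(A)-shortening nuclease, had 7 and 14 (0.274). TRPM7, a cation channel with a kinase domain, had 12 and 20 (0.329). PRKAR1A, a regulatory subunit of protein kinase A, had 24 and 33 (0.399). PTGES3, a cochaperone of Hsp90, had 38 and 43 (0.485). The junction over TMEFF1 and MSANTD3 had 22 reads at E100 and 31 at E80 (0.389). LRRC9 had 10 reads at E100 and 18 at E80 (0.305), beside the FPKM of its host that stood out in the E80 library. SNAP91, a clathrin adaptor of synaptic vesicles, had 24 and 27 (0.488), and VCAN, a matrix proteoglycan, had 17 and 19 (0.491). Each of these intervals left out 1 on library totals, that of VCAN only just (upper bound 0.998). Scaled by circRNA reads VCAN stood at 0.552 and its interval held 1, and SNAP91 was within 2-fold as well. With TMM factors, 5 of the 12 lowest (CDR1, PTGES3, the longer MORC3 circRNA, PRKAR1A and TMEFF1 with MSANTD3) lay within 2-fold, at ratios of up to 0.633. Because the E80 library is the smaller one, such ratios rest on similar read counts in libraries of unequal size. Next to the threshold, PHIP with 10 reads at E100 and 11 at E80 lay just inside (0.499). ZCCHC11, with 23 and 25 (0.505), lay just outside it. On the other side of the range, MLLT4 with 18 reads at E100 and 5 at E80 (1.98) was just short of 2-fold.

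**Figure D2:**
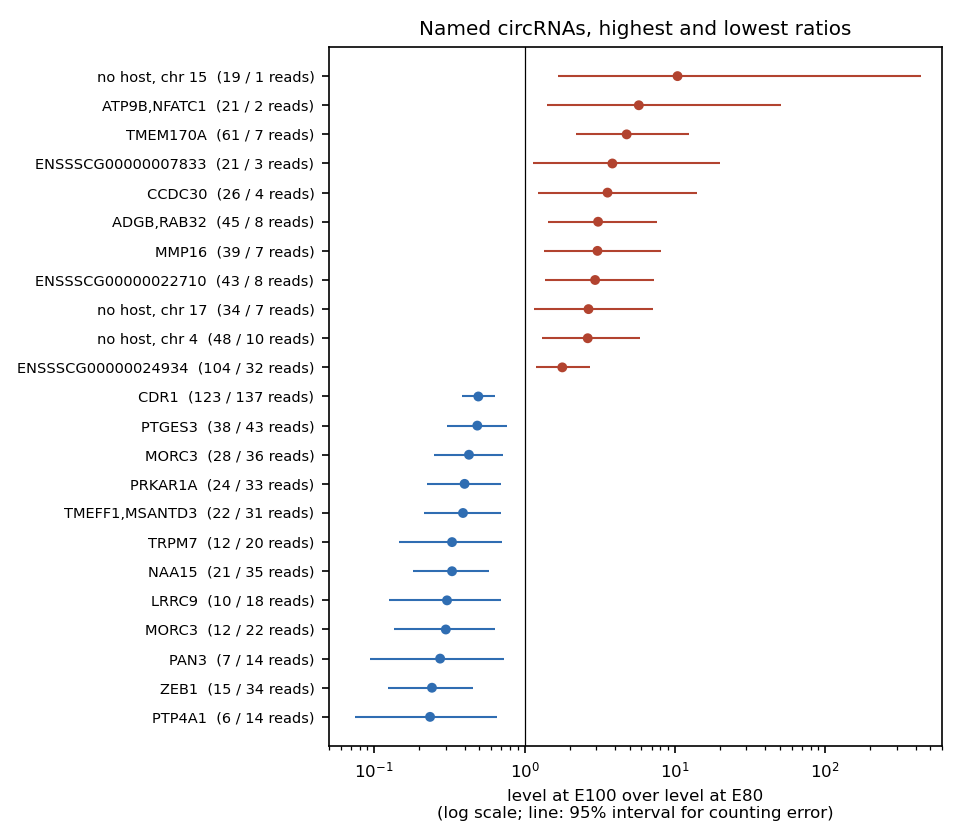
Ratio of levels, E100 over E80, on a log axis for circRNAs with the highest lower bounds (red) and the 12 with the lowest upper bounds (blue); lines are exact 95% intervals for counting error, and reads are given as E100 / E80. The ratios of the red group run from 1.78 to 10.4 and those of the blue group from 0.235 to 0.493.

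The 10 most abundant circRNAs lay within 2-fold, with CDR1 as the exception. The circRNA with most reads, of ENSSSCG00000020975 (chr13:210806110-210875564), had 437 reads at E100 and 207 at E80, or 9.01 and 7.77 RPM. Its ratio of 1.16 had an interval that held 1 (0.980 to 1.37). CSPP1, a gene of centrosomes and cilia, had 225 reads at E100 and 104 at E80 (chr4:73740572-73750002; ratio 1.19, interval 0.937 to 1.51). RIMS2, a scaffold of the presynaptic active zone, had 206 and 83 (chr4:35844936-35911000; ratio 1.36, interval 1.05 to 1.78). ENSSSCG00000026340 was also above 1, with 177 reads at E100 and 69 at E80 (1.41, interval 1.06 to 1.89). ENSSSCG00000025844 was below 1, with 130 and 96 (0.743, interval 0.566 to 0.978). Intervals that held 1 were found for ENSSSCG00000021381 with 134 reads at E100 and 80 at E80, for a junction with no host on chromosome 9 with 140 and 60, and for the TLK1 circRNAs with 128 and 70 and with 111 and 76. TLK1 encodes a kinase of chromatin assembly.

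Among the host gene lists, circRNAs of presynaptic genes stood highest at E100 relative to E80. The 49 circRNAs of 16 presynaptic hosts had 571 reads at E100 and 216 at E80, or 11.8 and 8.11 RPM. Their share of all circRNA reads was 4.35% at E100 (exact binomial interval 4.01 to 4.71) and 2.67% at E80 (2.33 to 3.04). The ratio of their levels was 1.45 (1.24 to 1.70), and 1.51 (1.23 to 1.85) without the circRNA with most reads, that of RIMS2. It was above 1 under each scaling, up to 1.86 with TMM factors. Of 8 presynaptic circRNAs among the 187, 5 were past 2-fold higher and 0 lower, against 12.3% and 16% of all. RIMS2 gave 2 of these, RIMS1 gave 1 and SYN2 gave 1. SNAP91, the synaptic vesicle gene given above among the lower circRNAs, was not in this list or in that of vesicle traffic. The absence of lower presynaptic circRNAs thus depends on how the list was written. SYN2, which encodes a phosphoprotein of synaptic vesicles, had 49 reads at E100 and 13 at E80 (chr13:75379989-75404735; ratio 2.07, interval 1.11 to 4.16). Its level over the 6 stages from E23 to E115 was 0.0170, 0, 0.0467, 0.488, 1.01 and 1.89 RPM, so most of its reads came from the last 3 stages. RIMS1, a relative of RIMS2, had 86 reads at E100 and 42 at E80 for its main circRNA (1.12, interval 0.768 to 1.67).

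The presynaptic host genes were higher at E100 as well. All 14 with an FPKM of their own were higher at E100, against 1399 of all 2171 hosts. Past 2-fold higher were 7 of the 14, against 107 of 2171 (4.93%), and 55 of 2171 were past 2-fold lower (2.53%). SYN2 had 58.1 FPKM at E100 and 16.3 at E80. The synaptotagmin gene SYT1, a calcium sensor of vesicle release, had 209 and 85.3, and RIMS2 had 32.0 and 11.8. SYN1, SYNJ1, SV2B and CADPS, all genes of the synaptic vesicle cycle, made up the rest of the 7. The median log2 change of the list was 1.05, on the scale of FPKM + 1, and 0.16 over all 2171 hosts. FPKM files carry no depth, and with 1 library a day no error of these changes could be had.

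Other neuronal lists had fewer circRNA reads. Postsynaptic hosts had 75 reads at E100 and 29 at E80, or 1.55 and 1.09 RPM, with a ratio of 1.42 whose interval held 1 (0.913 to 2.26), and 0 of their circRNAs were among the 187. Of 18 postsynaptic genes with an FPKM, 16 were higher at E100 and 5 past 2-fold, beside 1399 and 107 of 2171 hosts. CAMK2A, a calcium-dependent kinase of excitatory synapses, had 62.7 FPKM at E100 and 14.5 at E80. The glutamate receptor subunit GRIN2A had 23.5 and 5.43, and the scaffold HOMER1 46.9 and 16.8. Among postsynaptic hosts, LRRC7 had 16 circRNA reads at E100 and 1 at E80. Ion channel and transporter hosts had 95 circRNA reads at E100 and 50 at E80 (ratio 1.04, interval 0.733 to 1.499), while 14 of their 16 genes were higher in FPKM and 5 past 2-fold. Among them were the sodium channel SCN8A with 29.0 FPKM at E100 and 10.4 at E80 and the calcium pump ATP2B2 with 65.2 and 26.5. Its circRNA had 28 reads at E100 and 13 at E80 (1.18, interval 0.592 to 2.49). Hosts of vesicle traffic and endocytosis had 276 circRNA reads at E100 and 122 at E80 (1.24, interval 0.9997 to 1.55). Of their 5 circRNAs among the 187, 0 were past 2-fold either way, against 12.3% higher and 16% lower of all.

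Axon guidance and adhesion genes were divided. Their circRNAs had 167 reads at E100 and 82 at E80 (ratio 1.12, interval 0.853 to 1.47). RELN, the gene of the layering signal reelin, had 64 circRNA reads at E100 and 38 at E80 (0.924, interval 0.609 to 1.42). Of 3 circRNAs of the list among the 187, VCAN alone was past 2-fold, against 12.3% higher and 16% lower of all. In FPKM, 11 of 20 were higher, a smaller share than the 1399 of all 2171 hosts, 0 were past 2-fold higher and 3 were past 2-fold lower. DCX, a microtubule protein of migrating neurons, had 29.9 FPKM at E100 and 69.1 at E80. The cadherin gene CDH2 had 88.6 and 208, and the ephrin receptor EPHA3 15.8 and 40.6. Against 1399 of all 2171 hosts, 0 of only 4 genes of cortical neuron identity were higher at E100. Their circRNAs had 35 reads at E100 and 28 at E80 (0.686, interval 0.405 to 1.17). Without ZFPM2, the cofactor gene whose circRNA had 23 and 11 reads, that ratio was 0.387 (0.169 to 0.861).

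The lists of chromatin and of RNA-binding genes had ratios close to that of all circRNAs, 0.890, which lies inside both intervals. Chromatin hosts had 679 circRNA reads at E100 and 465 at E80, or 14.0 and 17.5 RPM (ratio 0.801, interval 0.711 to 0.904). Of 9 among the 187, 0 were higher and 2 lower, both from MORC3, against 12.3% and 16% of all. HDAC2, a histone deacetylase, had 51 reads at E100 and 35 at E80 (0.800, interval 0.510 to 1.27). Hosts of RNA binding and splicing had 270 circRNA reads at E100 and 188 at E80 (0.788, interval 0.652 to 0.955), with 0 of 3 past 2-fold. With TMM factors both ratios were above 1, at 1.03 and 1.01, so the direction of both lists depends on the scaling. Median log2 FPKM changes were 0.04 for chromatin and 0.05 for RNA-binding hosts. TGF-beta and BMP signalling hosts had 89 circRNA reads at E100 and 80 at E80 (0.611, interval 0.446 to 0.836). Without the ZEB1 circRNA the ratio was 0.883 (0.603 to 1.30).

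Glial and dividing-cell hosts gave few circRNA reads. Oligodendrocyte and myelin hosts had 24 reads at E100 and 28 at E80 (0.470, interval 0.261 to 0.842). Without ENPP2, whose circRNAs had 0 and 10 reads, they had 24 and 18 (0.732, interval 0.381 to 1.43). Their FPKM went apart. OMG, a myelin glycoprotein, had 76.2 at E100 and 19.9 at E80, and QKI, an RNA-binding protein of myelinating cells that promotes the formation of circRNAs in human cells, had 354 and 160. QKI circRNAs had 11 reads at E100 and 2 at E80, and those listed under OMG had 13 and 12. The OMG ones did not follow the FPKM of the gene, with 36 reads at E23, where OMG had 0.425 FPKM. Whether these junctions belong to OMG was not examined. Astrocyte and radial glia hosts had 23 circRNA reads at E100 and 15 at E80 (0.841, interval 0.421 to 1.73), and 4 of 6 genes were higher in FPKM, close to the share among all hosts. Cell cycle hosts had 16 and 11 (0.798, interval 0.348 to 1.90). Of 17 cell cycle genes, 4 were higher, against 1399 of 2171 hosts, 0 were past 2-fold either way and the median log2 change was -0.17, against 0.16 over all hosts. The intervals of kinase and phosphatase (0.913), ubiquitin (1.01), centrosome and cilium (1.04), Wnt (0.836) and conserved circRNA hosts (0.917) also held 1. Among 17 circRNAs of the last list, 3 were past 2-fold higher and 3 lower, close to the 12.3% and 16% of all 187. Without CSPP1 the centrosome ratio was 0.827.

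**Figure D3:**
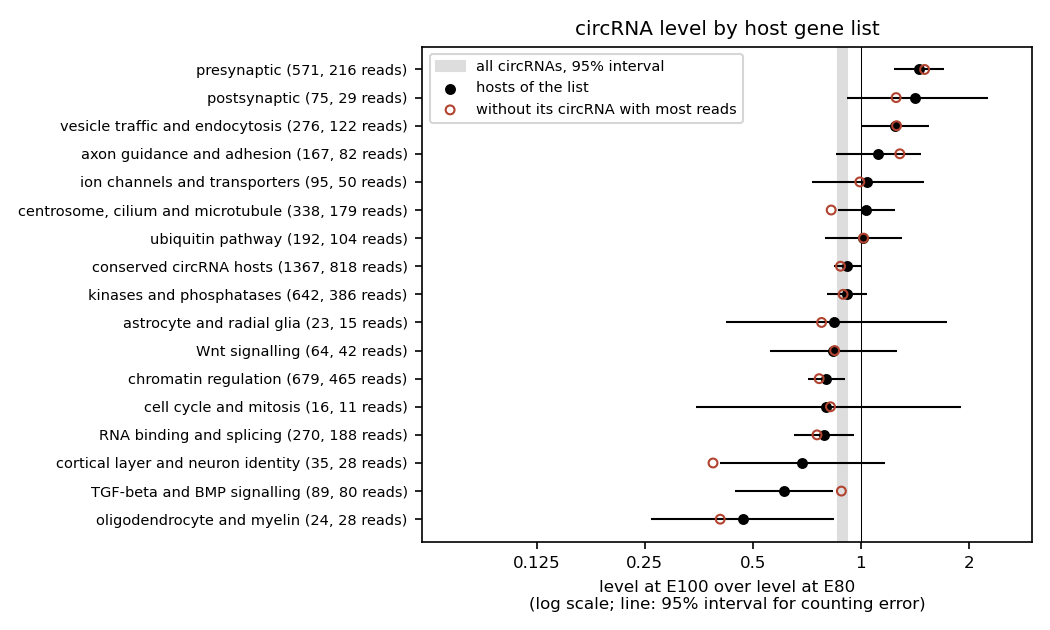
Ratio of circRNA levels, E100 over E80, on a log axis for each host gene list with at least 20 reads (reads at E100 and E80 in brackets); black points are all hosts of a list with exact 95% intervals for counting error, open circles leave out its circRNA with most reads, and the grey band is the interval of all circRNAs. The presynaptic list stands highest at 1.45 and the oligodendrocyte and myelin list lowest at 0.470.

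CircRNA ratios tended to go with the FPKM change of the host, with wide scatter. Over the 161 of 187 circRNAs with 1 host, Spearman's rho was 0.40 and Pearson's r 0.43. This is a description across circRNAs of the same libraries, in which the FPKM may also count reads of the circRNA's exons. For the 13 circRNAs whose host was past 2-fold higher in FPKM, 12 had a ratio above 1, 6 were past 2-fold higher, 0 were lower and the median ratio was 1.55. The 144 with a host within 2-fold had a median ratio of 0.878, with 8 past 2-fold higher and 25 lower. For the 4 with a host past 2-fold lower, 2 were past 2-fold lower and the median was 0.499. Of the circRNAs past 2-fold higher, 13 of 14 with 1 host had a host with more FPKM at E100, against 13 of 27 of the lower ones and 113 of all 161. Circles could depart from their host in either direction. ENSSSCG00000029487 had the largest increase among hosts of the 187, with 367 FPKM at E100 and 48.6 at E80, while its circRNAs had 48 reads and 22 (1.20, interval 0.709 to 2.08). ELMOD2 was lower in FPKM, 8.44 at E100 and 14.7 at E80, with 36 circRNA reads at E100 and 12 at E80 (1.65, interval 0.837 to 3.48). ZCCHC11 had 24.4 FPKM at E100 and 56.4 at E80, and its circRNAs together had 43 reads and 38 (0.621, interval 0.392 to 0.987). Beside SYN2 and ENSSSCG00000007833, ENSSSCG00000025352 with 15.02 FPKM at E100 and 3.84 at E80 and NDFIP2 were among the 5 largest increases, counted over hosts of the 187 circRNAs with an FPKM of at least 1. CAMK2A and OMG, hosts outside the 187, had larger increases than these but smaller ones than ENSSSCG00000029487.

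**Figure D4:**
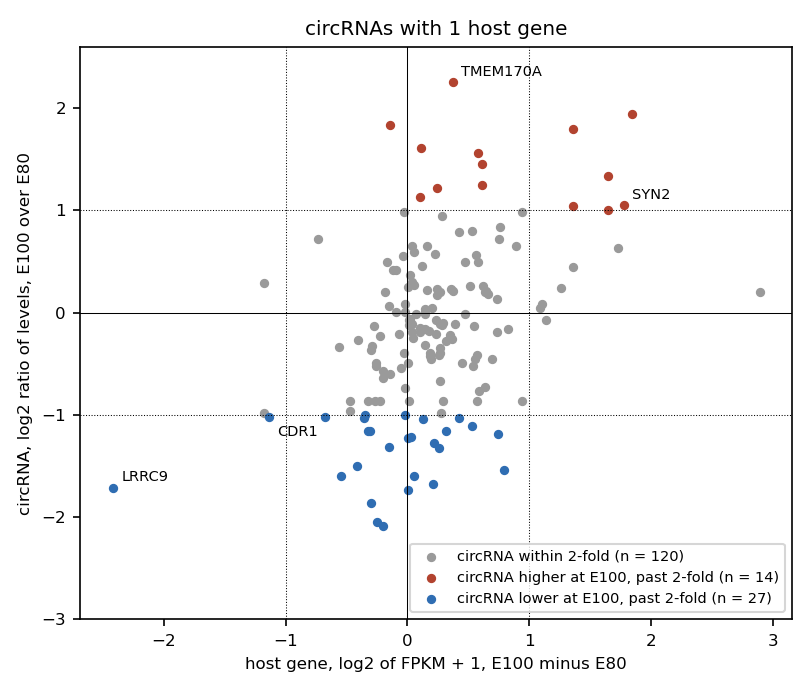
Log2 ratio of circRNA levels, E100 over E80 (vertical), against the log2 change of the host gene in FPKM + 1, E100 minus E80 (horizontal), for the 161 circRNAs with 1 host; dotted lines mark 2-fold. Of the 13 circRNAs right of the dotted line at 1, 12 lie above 0, while circRNAs past 2-fold lower (27) lie on both sides of a level host.

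Whether circRNAs of 1 host went the same way more than others was not tested. Of 12 hosts with at least 2 circRNAs among the 187, 9 had all ratios on the same side of 1. Over all 187, 83 ratios were above 1, so unrelated circRNAs would often share a side too. In 0 of the 12 hosts was one circRNA past 2-fold higher beside one past 2-fold lower. With 12.3% of all 187 higher and 16% lower, few such hosts would be met in any case. The highest ratio over the lowest had a median of 1.35 over the 12 hosts. RIMS2 had 3, with ratios of 1.36, 2.06 and 3.48, which begin at the same junction end (35844936 on chromosome 4). All RIMS2 circRNAs together had 258 reads at E100 and 94 at E80 (1.51, interval 1.19 to 1.93). The pair from NDFIP2, an adaptor of NEDD4-family ubiquitin ligases, had 2.01 and 2.52 and also shared a junction end. Its circRNAs together had 69 reads at E100 and 18 at E80 (2.10, interval 1.24 to 3.76), and the gene had 90.0 FPKM at E100 and 28.0 at E80. The MORC3 circRNAs together had 49 reads at E100 and 65 at E80 (0.414, interval 0.280 to 0.609). TLK1, with 4 of the 187, was level at 306 and 188 reads (0.893, interval 0.742 to 1.08). ZCCHC11 was the most divided of the lower hosts, with 0.505 and 1.22.

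In reads summed per length class, circles that span short genomic distances were lower at E100, and those that span the longest were not. Those under 1 kb had 17.1 RPM at E100 and 22.3 at E80 (ratio 0.768, interval 0.690 to 0.854), and those from 1 to 5 kb had 42.2 and 55.4 (0.762, interval 0.712 to 0.815). From 5 to 10 kb the levels were 37.0 RPM at E100 and 43.5 at E80 (0.850), and from 10 to 20 kb 41.4 and 50.7 (0.817). From 20 to 40 kb they were 49.9 and 52.9 (0.943, interval 0.883 to 1.01). Those over 40 kb had 82.9 RPM at E100 and 79.3 at E80 (1.05, interval 0.992 to 1.10), and held 30.7% of circRNA reads at E100 and 26.1% at E80. Under TMM factors the 2 shortest classes stood at 0.986 and 0.978 and the longest at 1.34, so the direction of the short classes depends on the scaling, while the difference between short and long does not. In the pair E115 over E60, which shares no library with the step, the ratios were 0.111, 0.155, 0.182, 0.219, 0.360 and 0.729 from the shortest to the longest class. Genomic length is the distance between junction ends and not the length of the spliced circle.

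Among the 23 circRNAs past 2-fold higher the median genomic length was 24.7 kb, with 14 over 20 kb. Among the 30 lower ones it was 6.78 kb, with 6 over 20 kb, and over all 187 it was 22.3 kb, with 98. Over the 187, length and ratio went together weakly, with a Spearman's rho of 0.17. From the shortest to the longest class, the median ratio of single circRNAs was 0.793, 0.878, 0.949, 0.878, 1.03 and 0.956. The typical circRNA over 40 kb was thus also slightly below 1, and 8 of 58 there were past 2-fold higher, against 12.3% of all. NDFIP2 had the shortest of the higher circRNAs, whose junction ends lie 0.166 kb apart.

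**Figure D5:**
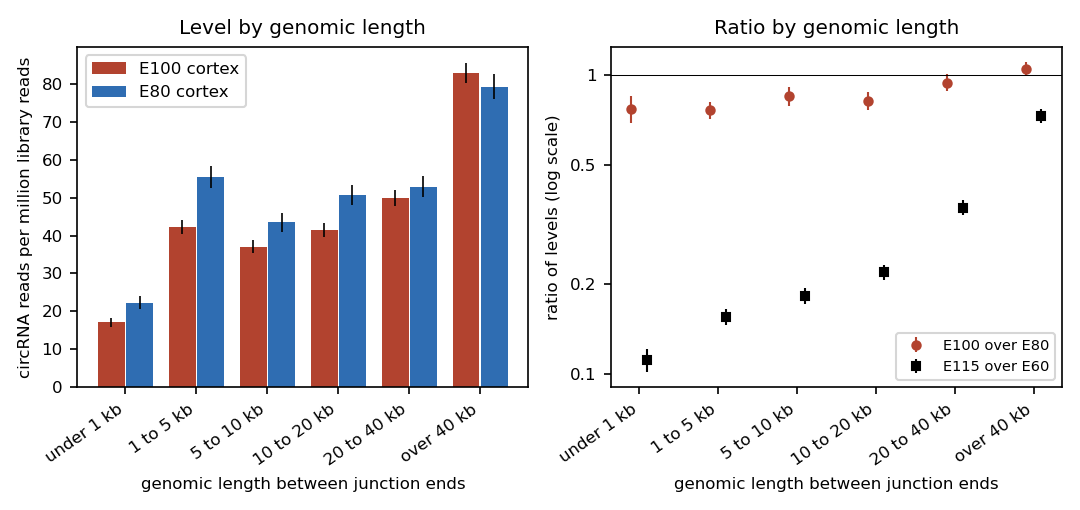
Left, circRNA level at E100 (red) and E80 (blue) in reads per 1e6 library reads by genomic length class, with exact 95% Poisson intervals as error bars; right, ratio of levels on a log axis for E100 over E80 (circles) and E115 over E60 (squares), with exact 95% intervals. The ratio is 0.768 under 1 kb and 1.05 over 40 kb for E100 over E80, and 0.111 and 0.729 for E115 over E60.

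The circRNAs that were past 2-fold in the step also differed over stages that it did not use. The ratio of E115 over E60 had a median of 1.06 in the 23 higher circRNAs, 0.143 in the 30 lower ones and 0.419 in all 187. It was above the median of all in 20 of 23 higher and in 4 of 30 lower circRNAs. Of the 23, 22 were higher at E115 than at E80, and all 30 were lower at E115 than at E80. Both groups were picked on their E80 reads, so these counts are partly set in advance and are no separate result. The junction on chromosome 4 with no listed host had 0.0850, 0.0375, 0.0934, 0.376, 0.989 and 1.11 RPM from E23 to E115, with its highest levels at the last 2 stages. TMEM170A went down and up, with 0.476, 1.54, 0.981, 0.263, 1.26 and 1.06 RPM, and E80 was its lowest stage. ZEB1 had 4.38, 4.38, 3.64, 1.28, 0.309 and 0.315 RPM, and NAA15 had 1.21, 5.58, 5.79, 1.31, 0.433 and 0.167. Both were thus already past their highest levels at E80. CDR1 alone of these peaked at E80, with 0.187, 2.70, 3.04, 5.14, 2.53 and 2.22 RPM, so its lower level at E100 rests on 1 high library.

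The 588 lines that did not add up (10.5%) bear on E100 more than on E80. Of these, 562 were short of their stated total, by 992 reads in all, and 345 of them by 1 read. E100 was listed at 0 reads in 95.2% of them, against 54.2% of the lines that added up. With every missing read given to E100, which is an upper bound, 24 of 193 circRNAs were past 2-fold higher and 34 lower. That adds 6 circRNAs to the 187, of which 4 were past 2-fold lower, 1 higher and 1 within. PAXIP1, a chromatin and DNA repair gene, had at most 5 reads at E100 and 33 at E80 (chr18:3240831-3242166; ratio up to 0.0831). DPP8, a peptidase gene, had at most 5 and 20 (up to 0.137), and a further NAA15 circRNA at most 5 and 15 (chr8:93236367-93240931; up to 0.183). ZYMND11 had at most 7 and 16 (up to 0.240). The junction listed under 7SK, a small nuclear RNA, had at most 20 reads at E100 and 1 at E80 (up to 10.98), and the one under U6, a spliceosomal RNA, at most 19 and 9 (up to 1.16).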

How the data were processed

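Backsplice reads were deposited by the authors as whole counts per library, per the file headers. The authors' RPM (reads per 1e6 library reads, per the file headers) is 0 in lines with 1 read. Host gene FPKM was deposited too, per the file headers. Tools named in the submitters' processing notes are Trim Galore, TopHat2, Cufflinks and Cuffdiff, beside the build Sscrofa10.2 (susScr3), versions not given. The other deposited values, unique junction reads and genomic length, are per the file headers. The circRNA caller is not given in the sources used here. Per the labels' protocols, Ribo-Zero depletion of the RNA over 200 nt preceded ScriptSeq v2 library preparation.

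Library totals were recovered as the median of reads over RPM where a circRNA had more than 1 read. The kind of reads that make up a total is not given in the sources used here. A level is reads over this total. Levels have exact Poisson, shares exact binomial (Clopper-Pearson) and ratios exact conditional intervals, all at 95%. They cover counting error alone, as the reads had no molecular identifiers. A count of 0 was set at 3 reads, per library. With 1 library a day and no replicates no test was possible, and whether libraries came from separate animals is not stated. TMM factors came from edgeR 4.0.16 in R 4.3.3, used for scaling alone. The other tools were Python 3.11.15, SciPy 1.17.1, pandas 2.3.3 and matplotlib 3.10.9, and the intervals were checked on simulated data.

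Host names are those of the table; symbols were found for 244 of 634 Ensembl IDs in a gene name table and in RefSeq (assembly Sscrofa11.1), used for names alone. FPKM was used for lines with 1 host. A host change is log2 of FPKM + 1. Named were the 12 circRNAs with the highest lower and the 12 with the lowest upper bounds, the 10 with most reads, up to 3 per list with most reads and those past 2-fold with an interval that left out 1, and, among hosts of circRNAs with at least 20 reads and with an FPKM of at least 1, the 5 with the largest changes each way; some of these are not reported here. Genes named for standing out at 1 stage, host genes named within lists, circRNAs at 0 reads in 1 library and those near the threshold were chosen after their values were seen. The 18 lists were written from general knowledge, and members and lists were chosen with earlier results of these data known. Positions count from 1. No sequence is shown, since no genome of this build was used here, and junction ends were not placed in exons or introns. The deposited table of other brain regions was not used here. Alternatives varied the lines used, the scaling, the read minimum, the fold, the pseudocount and the circRNA with most reads.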

Additional observations from a re-analysis of the deposited data

Results flagged for a closer look

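Reads were present in the lines left out of the comparison. In those lines, whose library reads do not add up to the stated total, the E100 cortex had 107 reads (0.808% of its circRNA reads) and the E80 cortex had 992 (10.9%). The other 4 libraries of the table had 6.22% to 8.83% of their reads there, so E100 lay below and E80 above them. Circles with exactly 1 read numbered 539 at E100 over all lines, and 797 to 901 in the other libraries. With each shortfall of 1 read given to E100 the number was 874.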

How the results depend on the processing

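No paired analysis was possible because the labels give no replicate numbers and each day has 1 library; for the same reason no library could be left out. The ratio of total levels was 0.799 over all lines, 0.859 with shortfalls given to E100 (chosen after seeing the data) and 0.955 over circRNAs with at least 20 reads. The expected number detected was 1963 at E100 and 2093 at E80 from 1 read, and 711 and 711 from 3 reads. The count past 2-fold higher was 37 with TMM factors, 71 from 10 reads, 5 from 50 reads, 164 from 1 read, 39 at 1.5-fold and 10 at 3-fold. The count lower was 18 scaled by circRNA reads, 10 with TMM factors, 77 from 10 reads, 8 from 50 reads, 205 from 1 read, 49 at 1.5-fold and 8 at 3-fold. From 1 read, circRNAs with at most 3 reads in both libraries were given no ratio. Scaled by circRNA reads, the median E115 over E60 ratios were 3.96 for the higher and 0.538 for the lower circRNAs. The median ratio of the 187 circRNAs did turn with the scaling: its log2 was -0.11 on library totals, 0.06 scaled by circRNA reads and 0.25 with TMM factors, and the balance of higher and lower counts turned with it. The ratio of total levels was below 1 in each of its values given above, all of them on library totals. Scaling by circRNA reads sets it to 1 by construction, a shift of 0.17 in log2. TMM factors shift log2 ratios further, by 0.36, so the direction of the total also depends on the scaling. The cause of each move was not tested beyond its construction. Of the other 105 values tried, on lists, named circRNAs and length classes, 98 stayed within their interval and 7 moved. These 105 did not include TMM factors. Named circRNAs were rescaled by circRNA reads alone, and lists and length classes were not rescaled, so the count says little about scaling. With TMM factors the presynaptic ratio was 1.86, above its upper bound of 1.70. The chromatin ratio was 1.03 (upper bound 0.904) and that under 1 kb 0.986 (0.854). The list of other cell types, with 1 circRNA, gave no value without it. Depth limits ratios of single circRNAs to those with at least 20 reads, which held 50.5% of reads at E100 and 47.1% at E80.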
